A study of Mus musculus with 32 samples.

Results

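Intestinal stem cells were compared with the progenitors sorted beside them, in mice that lacked Cpt1a in the intestinal epithelium and ate a high-fat diet. The comparison used 8 of the study's 32 bulk RNA-seq libraries, the 4 of stem cells and the 4 of progenitors whose labels combined Cpt1a deficiency with the high-fat diet, and it covered every gene with enough reads to be tested. Mice of both groups were C57BL6 and carried the floxed allele Cpt1afl/fl together with Villin-CreER and Lgr5-GFP-IRES-CreER, and their diet was labelled High Fat. The wild-type mice of the study carried Villin-CreER and Lgr5-GFP-IRES-CreER without the floxed allele, and its control diet was labelled High Fat Control. Villin-CreER makes a tamoxifen-inducible Cre recombinase in the intestinal epithelium, and the Lgr5 allele places GFP and a further CreER under the Lgr5 promoter, in a pattern known to be mosaic between crypts. Dissociated crypt cells that were alive by 7AAD, EpCAM+ and CD24 low/-, and negative for CD45, CD31 and Ter119, were split by their Lgr5-eGFP signal, with high cells taken as stem cells and low cells as progenitors. Each group held 2 libraries labelled F and 2 labelled M. Age, tamoxifen schedule and time on the diet were not given in the sources used here. Whether libraries came from separate mice was not stated either, so p-values measure the spread between libraries, estimated over all 32 of the study.

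Intestinal stem cells sit at the base of the crypt, where Wnt ligands, R-spondins and Notch signals from their neighbours keep them dividing. Their daughters move upward as progenitors and take either the absorptive fate of the enterocyte or a secretory fate, as goblet, Paneth, enteroendocrine or tuft cells, the secretory choice passing through the transcription factor Atoh1 where Notch signalling is low. Cpt1a encodes carnitine palmitoyltransferase 1a of the outer mitochondrial membrane, which joins long-chain fatty acids to carnitine so that they can enter mitochondria for oxidation, and dietary fat is known to raise its transcription through PPAR receptors.

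The 8 libraries held between 4449244 and 6694581 counts, and are named a to d within a group by their column order, which only names them. Pearson's r of log2 CPM (counts scaled to library size) between libraries, taken across genes, was 0.961 to 0.972 among stem cells and 0.969 to 0.977 among progenitors. Cpt1a stood at 25.9, 24.2, 25.8 and 18.8 CPM in stem cells and at 28.04, 28.2, 22.2 and 27.4 CPM in progenitors a to d, and the groups overlapped (log2 fold change -0.16 ± 0.16 SE, adjusted p = 0.489). In wild-type mice on the same diet the corresponding ranges were 182 to 240.2 and 247 to 347 CPM, so each deficient library lay below each wild-type one. The values are totals per gene and do not show which exons were read. The other carnitine palmitoyltransferase 1 genes, Cpt1b and Cpt1c, reached no more than 1.43 CPM in any of the 8 libraries and were below the filter. Lgr5, the gated gene, was at 296, 498, 369 and 341 CPM in stem cells and at 37.2, 67.1, 29.9 and 26.6 CPM in progenitors, which checks the sort and is not a finding. Epcam did not pass (log2 fold change -0.07 ± 0.09 SE, adjusted p = 0.559), though limma on TPM gave 0.18 with an adjusted p of 0.0317, and neither did Cd24a (log2 fold change -0.17 ± 0.15 SE, adjusted p = 0.407).

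Markers of other cells were low in both groups. The 27 white blood cell markers summed to between 9.94 and 15.2 CPM in stem cells and 12.1 and 24.4 CPM in progenitors, 2 were testable, and Cd3d and Cd4 were at 0 in all 8 libraries. The 18 stromal and endothelial markers summed to 14.9 to 21.3 CPM in stem cells and 36.7 to 59.7 CPM in progenitors, with Col1a1, Col1a2 and Dcn at 0 throughout, and 3 of the 6 testable ones, Vim, Mylk and Gpx3, were lower in stem cells. Red blood cell markers were below the filter, at no more than 7.57 CPM in sum. The stromal sum moved the same way as the goblet, enteroendocrine and enterocyte genes described below. Vim is in both the stromal and the enteroendocrine list. The white blood cell sums overlapped between the groups. The part of stromal and white blood cells in those differences was not tested. In bulk RNA, fewer cells of a type and less of its RNA per cell cannot be told apart.

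Of 13088 genes tested, 4107 (31.4%) passed an adjusted p of 0.05, 1840 higher in stem cells (14.1%) and 2267 lower (17.3%), and the median log2 fold change of all genes was 0.02. Counts of list members below are to be read beside these shares of 14.1% and 17.3%. The lower genes moved further. At least 2-fold differences numbered 443 among the higher genes and 868 among the lower, and at least 8-fold differences 18 and 247. The direction of small differences varied between fits: on the deposited TPM values, tested with limma, the median of all genes was 0.24 and 5485 genes passed, 4273 of them higher and 1212 lower, while upper quartile scaling of the counts gave 2338 higher and 1969 lower.

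The 12 genes that led the higher side were Lgr5 itself, Gm830, Tnfrsf19, A930009A15Rik, Fstl1, Pik3ap1, Fam20c, Cbs, Extl1, Pdgfa, Ccdc3 and Gper1. They ranged from a log2 fold change of 2.13 for Gper1, a membrane estrogen receptor, to 3.30 for Gm830. Among them were an adaptor of phosphoinositide 3-kinase (Pik3ap1, 2.65 ± 0.38 SE), a kinase of the secretory pathway (Fam20c, 2.60 ± 0.36), cystathionine beta-synthase (Cbs, 2.34 ± 0.32) and a ligand of the platelet-derived growth factor receptors (Pdgfa, 2.22 ± 0.25). The 12 that led the lower side were Zg16, Gip, Tac1, Cpe, Chgb, Clca1, Rep15, Chga, Tph1, Apol10a, Gcg and Scin. Of these, 11 were goblet or enteroendocrine genes by the marker lists used here, and Apol10a, an apolipoprotein L gene, was in neither list. No library of one group overlapped the other for any of these 24 genes, a condition of their choice.

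**Figure D1:**
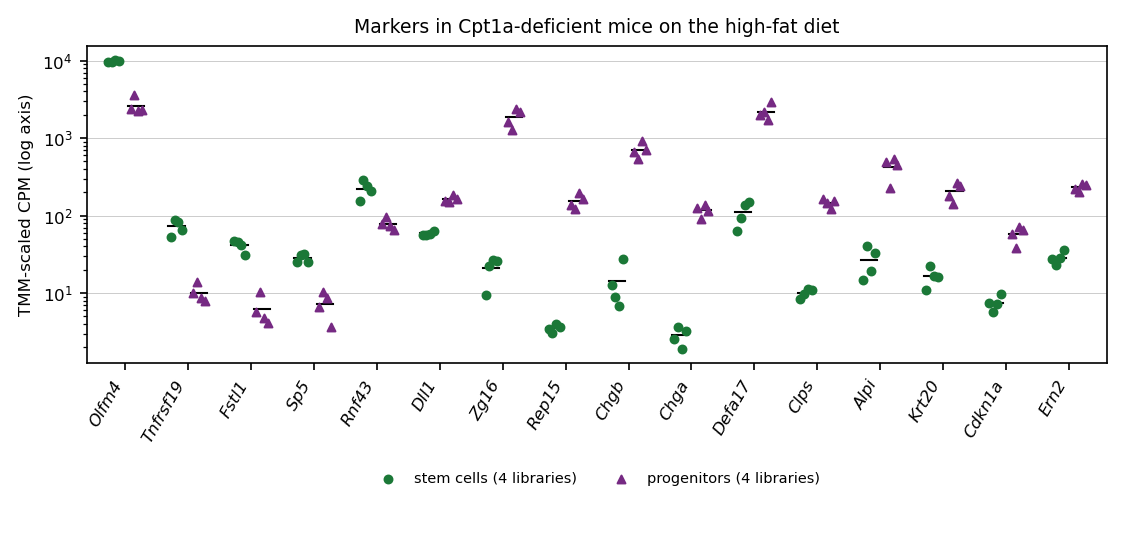
TMM-scaled CPM (log axis) of 16 marker genes in the 4 stem cell libraries (circles) and the 4 progenitor libraries (triangles) of Cpt1a-deficient mice on the high-fat diet, with black bars at group means. The 5 genes at the left are higher in stem cells and the 11 others are lower, and the groups do not overlap for any of them.

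Stem cell markers of the crypt base were higher in stem cells nearly throughout: 28 of the 33 tested of 34 listed passed as higher, none as lower, and their median log2 fold change was 1.44. The gated gene Lgr5 is in this list, so the count, the median and the summed level include it. The summed level of the list was 18557 to 21746 CPM in stem cells and 6749 to 6915 CPM in progenitors a, c and d, with progenitor b apart at 9423 CPM. Without that library 27 members passed. Olfm4, a secreted glycoprotein of crypt base cells and a Notch target (ENSMUSG00000022026, GRCm38 chr14:79984081-80023139 on the + strand), stood at 9495, 9669, 10192 and 9901 CPM in stem cells and at 2375, 3543, 2226 and 2275 CPM in progenitors. Each stem cell library lay far above each progenitor library, of which b was the highest (log2 fold change 1.91 ± 0.22 SE, adjusted p = 1.09e-07).

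Tnfrsf19, a receptor of the tumour necrosis factor family and a Wnt target, was at 53.6, 87.9, 83.5 and 64.9 CPM in stem cells against 10.1, 13.8, 8.53 and 7.93 CPM in progenitors (log2 fold change 2.83 ± 0.30 SE, adjusted p = 3.36e-08). For Fstl1, a secreted follistatin-like protein, the values were 46.9, 45.05, 41.6 and 30.7 CPM against 5.67, 10.2, 4.76 and 4.07 CPM (log2 fold change 2.72 ± 0.25 SE, adjusted p = 8.85e-10). Progenitor b was again the highest of its group for both, and stem cell library a was the lowest of its group for Tnfrsf19 and the highest for Fstl1. Pdgfa, the growth factor, stood at 71.4, 70.4, 69.9 and 62.6 CPM against 13.1, 16.7, 14.3 and 14.8 CPM, with little spread in either group. Ascl2 and Smoc2, a Wnt-dependent transcription factor of stem cells and a matricellular protein, were chosen for mention after their values were seen and had log2 fold changes of 1.78 ± 0.25 SE and 1.25 ± 0.12 SE. The 5 tested members that did not pass were Gpx2 (0.10 ± 0.13), Ephb2 (0.44 ± 0.22, which passed at 0.65 without stem cell library a), Znrf3 (0.77 ± 0.45), Nrn1 and Zfp467, the last 2 named because they complete the count.

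The reserve and revival stem cell genes, a list of cells that refill the crypt after injury, were below the filter for 8 of 18 members. Of the 10 tested, 3 rose and 2 fell, and the median was 0.19. Clu, the clusterin gene that marks revival stem cells, was at 15.1, 20.7, 27.9 and 21.3 CPM in stem cells and 1.73, 0.689, 3.37 and 1.07 CPM in progenitors (log2 fold change 3.62 ± 0.60 SE, adjusted p = 3.51e-05). Lrig1, a brake on EGF receptors, rose by 1.01, while Anxa3 (-2.68) and Krt19 (-0.86) fell. Bmi1 (0.28) and Hopx (0.26), 2 genes linked with reserve cells, did not pass in the same fit, and both did on TPM; Hopx also passed without progenitor b (adjusted p = 0.0419) or stem cell library d (0.0294).

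Wnt pathway genes rose at several levels of the pathway. Of 19 ligands, receptors and agonists tested of 28, 8 were higher and 3 lower (median 0.29). The gated gene Lgr5 is counted among the 8. The receptors Fzd2 (2.17 ± 0.41 SE) and Fzd7 (1.07 ± 0.18) and the ligand Wnt5b (1.65 ± 0.38) rose, and the receptor Fzd4 (-1.23 ± 0.26) fell, as did Wnt3 (-1.17 ± 0.31), a ligand known from Paneth cells. Lgr4, an R-spondin receptor made well beyond the stem cells, did not pass (0.24 ± 0.20). Among 16 inhibitors and feedback genes tested of 22, 6 rose and 3 fell (median 0.28). Rnf43, the ligase that removes Frizzled receptors and is itself a Wnt target, was at 155, 285, 239 and 206 CPM in stem cells and 77.5, 96.1, 72.2 and 64.7 CPM in progenitors, without overlap (log2 fold change 1.51 ± 0.20 SE, adjusted p = 8.42e-07). Axin2, the feedback scaffold of the destruction complex, had 12.7, 19.5, 19.6 and 17.2 CPM against 5.51, 9.30, 5.16 and 6.43 CPM (log2 fold change 1.38 ± 0.24 SE, adjusted p = 4.46e-05). Nkd1 (1.68 ± 0.37) and Apcdd1 (2.61 ± 0.49), further feedback inhibitors, also rose, while 3 members fell, Ctnnbip1 (-0.63 ± 0.14), which blocks beta-catenin from binding TCF, among them. On TPM none of these 3 passed.

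Of the 25 Wnt transcription factors and targets tested of 26, 12 rose and 3 fell (median 0.44). Sp5, a direct Wnt target, was at 25.2, 30.9, 32.1 and 24.96 CPM in stem cells and 6.62, 10.2, 8.73 and 3.64 CPM in progenitors, and progenitor b was the highest of its group (log2 fold change 1.94 ± 0.24 SE, adjusted p = 2.92e-07). Myc, the growth regulator downstream of Wnt, stood at 331, 282, 347 and 307 CPM against 192, 184, 195 and 150.38 CPM (log2 fold change 0.81 ± 0.13 SE, adjusted p = 1.76e-05). Sox9 (1.01 ± 0.18), Sox4 (1.10 ± 0.18) and Edn1 (2.15 ± 0.38) rose, and the TCF family factor Lef1, at 2.40, 2.67, 2.32 and 1.84 CPM in stem cells, was below 0.35 CPM in each progenitor library. The members that fell were Jag1 (-0.77 ± 0.22, with an adjusted p of 0.255 on TPM), Mmp7 (-2.57 ± 0.36), a Paneth cell protease, and Prox1 (-1.91 ± 0.45), an enteroendocrine and tuft cell factor. Ccnd1 (-0.23 ± 0.24) and Ccnd2 (-0.33 ± 0.16), cyclins often counted as Wnt targets, did not pass.

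The TCF factors that carry Wnt signals to genes bind a motif with the letters CTTTGAT. It was searched on both strands of RefSeq promoters (250 bases before to 50 after the start, GRCm38.p6), which matched 9623 of the 13088 genes tested with 12289 promoters. The motif was in 2.63% of all these promoters, 3.55% of those of genes higher in stem cells, 2.42% of those of genes lower, and 2 of the 28 promoters of the 22 crypt base markers that rose and had an entry (7.14%). Those 2 were of Sp5 and Tnfrsf19, and are shown because both genes rose as crypt base markers, as 100 bases of each promoter on the gene's own strand with the match in capitals, in the reverse direction for Tnfrsf19. The window of Sp5 is chr2:70474789-70474888 on the + strand and that of Tnfrsf19 is chr14:61038120-61038219 on the - strand.
Sp5: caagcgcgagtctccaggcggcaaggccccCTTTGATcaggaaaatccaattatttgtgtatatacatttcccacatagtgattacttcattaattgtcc
Tnfrsf19: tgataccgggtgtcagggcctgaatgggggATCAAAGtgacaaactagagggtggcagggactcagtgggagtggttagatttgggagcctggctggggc
A match of 7 letters is a description of the sequence and not of a bound site.

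The Notch ligands Dll1 and Dll4 were lower in stem cells and the receptor Notch1 was higher. In the list of ligands, receptors and modifiers, 7 of 19 tested members fell and 2 rose (median -0.22; on TPM 5 fell and 4 rose, with a median of -0.20 relative to all genes). Dll1, a ligand that secretory progenitors show to their neighbours, was at 56.5, 56.9, 58.1 and 63.02 CPM in stem cells and 154, 151, 182 and 162 CPM in progenitors, and neither group spread far (log2 fold change -1.47 ± 0.14 SE, adjusted p = 1.77e-09). Dll4, its partner, was at 16.6, 10.7, 17.7 and 14.5 CPM against 45.1, 33.6, 55.5 and 56.8 CPM (log2 fold change -1.68 ± 0.22 SE, adjusted p = 5.47e-07). Notch1, the receptor, went the other way, at 15.1, 28.03, 29.9998 and 18.4 CPM against 5.83, 10.7, 6.74 and 8.78 CPM (log2 fold change 1.51 ± 0.25 SE, adjusted p = 1.59e-05). Among 10 Notch targets and nuclear partners tested of 16, Olfm4 and Hes1 (0.69 ± 0.15), the repressor that Notch induces in crypts, rose and 2 fell, and the median was -0.15 (-0.18 relative to all genes on TPM).

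Transcription factors of the secretory fates fell as a group: 21 of 32 tested of 36 were lower, 2 were higher, and the median was -2.54. The 2 higher ones were Sox9 and Sox4, which stem cells also use. Isl1, a factor of enteroendocrine cells, was at 0.171, 0.334, 0.211 and 0.409 CPM in stem cells and 6.62, 6.03, 10.3 and 8.78 CPM in progenitors (log2 fold change -4.71 ± 0.55 SE, adjusted p = 7.4e-08), and Lmx1a, a factor of serotonin cells, at 0.343, 0.167, 0 and 0.409 CPM against 10.6, 6.71, 12.1 and 8.57 CPM. Pax6 (-4.41), Myt1 (-4.73), Etv1 (-4.37) and Runx1t1 (-4.28) were likewise near 0 CPM in stem cells, so that their fold changes depend on few reads there. Atoh1, the master factor of the secretory lineage, was picked out after its values were seen and fell by 2.82 ± 0.22 SE. The 3 abundant members, Foxa3 (-0.44 ± 0.19), Hes6 (0.19 ± 0.13) and Cbfa2t2 (0.13 ± 0.14), did not pass.

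Goblet cell genes were lower in stem cells with hardly an exception: 35 of 36 tested of 38 fell and none rose, with a median of -3.88 (-3.85 with Retnlb, which had no read in stem cells, placed at the bound that 3 counts in the group allow). The markers summed to 2437 to 3140 CPM in stem cells and 20227 to 30064 CPM in progenitors. Zg16, a lectin of the mucus layer (ENSMUSG00000049350, GRCm38 chr7:127050156-127087328 on the - strand), was at 9.42, 22.5, 26.4 and 25.99 CPM in stem cells and 1635, 1263, 2371 and 2179 CPM in progenitors (log2 fold change -6.47 ± 0.72 SE, adjusted p = 1.59e-07). Clca1, a mucus-processing metalloprotease, stood at 49.5, 61.2, 57.3 and 57.7 CPM against 2322, 1551, 2864 and 3255 CPM (log2 fold change -5.47 ± 0.55 SE, adjusted p = 2.84e-08). The libraries of a group stayed together while the groups were wide apart, with stem cell library a the lowest for Zg16 and progenitor b the lowest of its group for both. Rep15 (-5.44 ± 0.27), a partner of the small GTPase Rab15, Scin (-5.00 ± 0.33), an actin-severing protein, and Fer1l6 (-5.30 ± 0.48), a ferlin, fell as far, and Muc2, the gel-forming mucin, named after its values were seen, fell by 4.68 ± 0.38 SE. Foxa3 was the member that did not pass.

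Enteroendocrine genes were lower in stem cells for 39 of 40 tested of 47 and higher for none, with a median of -4.04. Their sum was 168 to 251 CPM in stem cells and 2055 to 2869 CPM in progenitors. Chgb, a granin of secretory granules, was at 12.8, 9.01, 6.76 and 27.8 CPM in stem cells, where library d was the highest, and at 659, 544, 911 and 712 CPM in progenitors (log2 fold change -5.65 ± 0.61 SE, adjusted p = 8.76e-08). Chga, the other classical granin, stood at 2.57, 3.67, 1.90 and 3.27 CPM against 125, 90.6, 138 and 115 CPM (log2 fold change -5.34 ± 0.52 SE, adjusted p = 1.6e-08). For these 2 granins each stem cell library lay below each progenitor library. Hormone genes followed: Tac1, which encodes substance P, had 0.685, 0.501, 1.27 and 2.25 CPM against 65.2, 48.9, 85.9 and 59.8 CPM, Gcg, the precursor of GLP-1, had 3.25, 4.17, 14.8 and 9.82 CPM against 284, 209, 329 and 306 CPM, and Gip had no read in stem cell libraries c and d and 4.50 CPM in b, against 109, 101, 81.5 and 142 CPM in progenitors. The enzyme of serotonin synthesis, Tph1 (-5.31 ± 0.61), and the prohormone-processing carboxypeptidase Cpe (-5.67 ± 0.47) fell too. Rundc3a was the tested member that did not pass (-0.61 ± 0.26), except without progenitor b.

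Some of the factors that direct endocrine differentiation, such as Neurog3 and Neurod1, belong to the basic helix-loop-helix family, which binds E-boxes. The E-box CAGCTG, which reads the same on both strands, was in 14.8% of all promoters, 14.7% of those of genes higher in stem cells and 16.4% of those of genes lower. It was in 15 of the 46 promoters of enteroendocrine genes (32.6%) and in 6 of the 28 promoters of goblet genes (21.4%). Promoters of Gip, a hormone of K cells, Chga and Sct, the secretin gene, are shown because they carried the E-box and are 3 endocrine products, Sct being chosen after its values were seen (-3.77 ± 0.28 SE). Their windows are chr11:96024445-96024544 on the + strand, chr12:102554732-102554831 on the + strand, which holds 2 matches, and chr7:141279196-141279295 on the - strand.
Gip: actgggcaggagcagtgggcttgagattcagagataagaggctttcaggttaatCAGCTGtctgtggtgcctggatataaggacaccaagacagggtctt
Chga: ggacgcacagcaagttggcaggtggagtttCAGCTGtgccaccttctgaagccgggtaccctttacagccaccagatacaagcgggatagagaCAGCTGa
Sct: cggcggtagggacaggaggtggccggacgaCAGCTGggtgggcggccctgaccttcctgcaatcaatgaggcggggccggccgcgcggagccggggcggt

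Paneth cell genes were lower for 23 of 32 tested members of 33 listed and higher for 3, with a median of -2.68. Their sum was 2194 to 4209 CPM in stem cells and 18945 to 34377 CPM in progenitors. Defa17, an alpha-defensin, was at 64.1, 92.4, 138 and 149.98 CPM in stem cells and 1992, 2185, 1695 and 2878 CPM in progenitors (log2 fold change -4.30 ± 0.59 SE, adjusted p = 3.72e-06). The alpha-defensin genes are near-identical copies, so the share of each is uncertain. Clps, which encodes the lipase partner colipase, had 8.39, 9.68, 11.2 and 10.8 CPM against 162, 146, 121 and 156 CPM (log2 fold change -3.87 ± 0.45 SE, adjusted p = 2.57e-07), and Itln1, the intelectin, 102, 293, 392 and 382 CPM against 3058, 3363, 2614 and 4596 CPM (log2 fold change -3.54 ± 0.68 SE, adjusted p = 0.000245). Mptx1, a mucosal pentraxin, fell by 4.20. Sox9 and Tifa (1.23 ± 0.16), an adaptor of innate signalling, were among those that rose. The log2 fold change was above 0 for 5 tested members, and the highest was 4.23, for a member not named here. Defa21 (-1.79 ± 0.79) and Reg3g (-1.46 ± 0.80), an antibacterial lectin, did not pass.

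Tuft cell genes fell for 12 of 21 tested members of 35 and rose for none (median -1.57), but their sums overlapped, at 1002 to 1238 CPM in stem cells and 1179 to 1442 CPM in progenitors, since widely expressed members such as Krt18 and Cd24a are in the list. Lrmp had 1.20, 0.667, 0.423 and 2.66 CPM in stem cells and 8.82, 13.3, 8.73 and 18.6 CPM in progenitors (log2 fold change -3.31 ± 0.43 SE, adjusted p = 5.29e-07), and Ptgs1, the cyclooxygenase of tuft cells, 1.54, 1.001, 0.634 and 1.23 CPM against 6.30, 9.99, 10.1 and 3.43 CPM (log2 fold change -2.72 ± 0.44 SE, adjusted p = 1.7e-05). Among 9 tested markers of M cells and follicle epithelium, 5 fell and 2, Clu and Marcksl1, rose (median -0.76). Spib (-2.77 ± 0.51), a transcription factor of M cells and tuft cells, and Ccl9 (-3.97 ± 0.37), a chemokine that the goblet list also holds, were among those that fell.

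**Figure D2:**
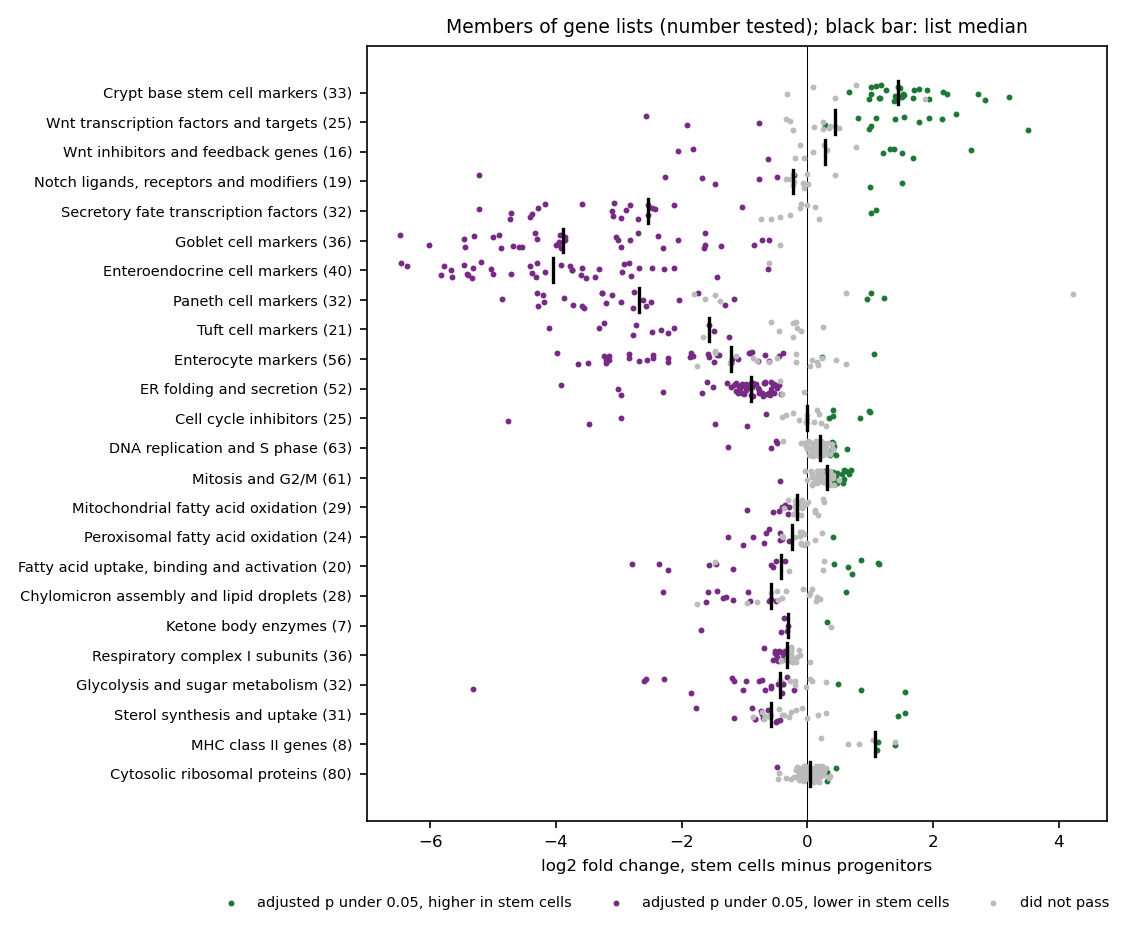
Log2 fold changes (stem cells minus progenitors) of the tested members of 24 gene lists, each dot 1 gene, coloured where the adjusted p is under 0.05, with the list median as a black bar and the number tested in parentheses. Goblet (-3.88) and enteroendocrine (-4.04) lists lie at the left and the crypt base list (1.44) at the right, while metabolic and division lists lie near 0. On the TPM scale the medians of the mitochondrial and peroxisomal oxidation lists are above 0 but below the median of all genes.

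Enterocyte genes were lower for 36 of 56 tested of 61 and higher for 2 (median -1.22). The sum was 5362 to 6313 CPM in stem cells and 10743 to 15292 CPM in progenitors, where b was the lowest. Alpi, the brush border alkaline phosphatase (ENSMUSG00000079440, GRCm38 chr1:87098002-87101606 on the - strand), was at 14.7, 40.9, 19.4 and 32.5 CPM in stem cells and 491, 227, 535 and 448 CPM in progenitors (log2 fold change -3.98 ± 0.68 SE, adjusted p = 6.74e-05). Krt20, a keratin of differentiated villus cells, stood at 10.96, 22.02, 16.5 and 15.96 CPM against 178, 141, 262 and 241 CPM (log2 fold change -3.65 ± 0.37 SE, adjusted p = 2.53e-08), and the disaccharidase Sis at 7.71, 21.7, 14.6 and 12.5 CPM against 177, 101, 169 and 187 CPM (log2 fold change -3.48 ± 0.42 SE, adjusted p = 5.69e-07). In Alpi and Sis progenitor b was the lowest and stem cell library b the highest of their groups. Guca2b, the guanylate cyclase ligand uroguanylin, fell by 3.24 ± 0.27 SE. Vil1 (-0.18 ± 0.09), the villin of microvilli, Ezr (-0.18 ± 0.08) and the glucose carrier Slc5a1 (0.23 ± 0.20) did not pass, and the protease Mep1a (1.07 ± 0.20) was 1 of the 2 that rose.

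Transcription factors of absorptive and intestinal identity split, with 7 of 30 tested higher and 8 lower (median -0.09; 10 and 4 on TPM). Of them 4 were higher without stem cell library b and 5 lower without progenitor d. Hnf4g, a nuclear receptor of enterocytes, was at 82.7, 84.1, 89.2 and 92.7 CPM in stem cells and 216, 184, 196 and 223 CPM in progenitors (log2 fold change -1.23 ± 0.20 SE, adjusted p = 1.96e-05), and Klf4 (-2.54 ± 0.31), Tfcp2l1 (-1.48 ± 0.37) and Maf (-3.15 ± 0.66) fell. Vdr, the vitamin D receptor, was higher in stem cells, at 1368, 1998, 1944 and 1442 CPM against 884, 1100.2, 811 and 797 CPM (log2 fold change 0.91 ± 0.17 SE, adjusted p = 0.000151), as was the epithelial ETS factor Ehf (0.90 ± 0.11). Cdx1 (0.11 ± 0.14), Elf3 (-0.04 ± 0.12) and Klf5 (-0.10 ± 0.11) did not pass.

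The HNF4 core CAAAGTC, searched on both strands, was in 4.00% of all promoters, 3.29% of those of genes higher in stem cells and 5.63% of those of genes lower. It was in 10 of 52 promoters of enterocyte genes (19.2%). The promoters of Alpi, Slc51a, a bile acid exporter subunit, and Rbp2, the retinol carrier of enterocytes, are shown as 3 of these, the last 2 chosen after their values were seen (-2.83 ± 0.30 and -3.16 ± 0.50 SE). Their windows are chr1:87101607-87101706 on the - strand, chr16:32487887-32487986 on the - strand and chr9:98490375-98490474 on the + strand, and the match of the latter 2 is in the reverse direction.
Alpi: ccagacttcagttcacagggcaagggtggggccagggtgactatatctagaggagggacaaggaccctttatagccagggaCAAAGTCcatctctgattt
Slc51a: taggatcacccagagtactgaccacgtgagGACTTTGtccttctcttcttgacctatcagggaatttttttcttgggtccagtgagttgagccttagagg
Rbp2: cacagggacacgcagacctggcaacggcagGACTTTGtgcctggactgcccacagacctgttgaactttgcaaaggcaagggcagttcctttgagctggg

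Genes of the endoplasmic reticulum that fold and export proteins were lower in stem cells for 49 of 52 members and higher for none, at a smaller median of -0.89. Ern2, the stress sensor of mucus cells, stood at 27.4, 22.7, 28.3 and 35.8 CPM in stem cells and 222, 199, 253 and 249 CPM in progenitors (log2 fold change -3.02 ± 0.23 SE, adjusted p = 1.29e-10). Sec24d, a coat protein of export vesicles, was at 19.2, 22.5, 18.8 and 14.7 CPM against 140.4, 124, 175 and 151 CPM (log2 fold change -2.96 ± 0.22 SE, adjusted p = 5.83e-11), and the disulfide isomerase Pdia5 at 43.9, 36.9, 50.9 and 61.6 CPM against 203, 204, 291 and 253 CPM (log2 fold change -2.30 ± 0.20 SE, adjusted p = 6.18e-10). The groups were compact and apart for these 3 genes. Kdelr3 (-3.92 ± 0.34), a retrieval receptor, Manf (-1.67 ± 0.23) and Sdf2l1 (-1.60 ± 0.24) fell as well. The 3 members that did not pass were Ddit3 (-0.44 ± 0.23), Herpud1 (-0.05 ± 0.33) and Trib3 (-0.40 ± 0.53), genes known to respond to stress in this organelle. The goblet list and this one share Ern2 and Pdia5.

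Genes of other signalling pathways moved less. In the BMP and TGF-beta list 10 of 32 tested members rose and 5 fell (median 0.11), with 3 lower without stem cell library d or progenitor c. Rgmb, a BMP co-receptor, was at 236, 410.4, 340.3 and 313 CPM in stem cells and 93.4, 137, 87.7 and 83.97 CPM in progenitors (log2 fold change 1.69 ± 0.22 SE, adjusted p = 1.29e-06), and Bmp1 (1.09 ± 0.24) rose, while the ligand Bmp2 (-1.93 ± 0.26), the decoy receptor Bambi (-1.32 ± 0.24) and Id4 (-3.58 ± 0.41), an inhibitor of helix-loop-helix factors, fell. Smad4 (0.15 ± 0.88) and Smad1 (-0.04 ± 0.09), transducers of these signals, did not pass. Of 12 Eph receptors and ephrins tested, which keep cells in position along the crypt, 5 rose and 1 fell (median 0.51): Ephb3 (1.53 ± 0.22), Efna4 (1.42 ± 0.18) and Epha4 (1.42 ± 0.31) rose and Efnb2 (-2.16 ± 0.28) fell. Ephrins of the B class are known from differentiated cells, and their receptors from the crypt base.

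In the EGF receptor list 6 of 22 tested rose and 2 fell (median 0.24, and 0.05 without stem cell library d). Nrg4 (1.02 ± 0.24), a neuregulin, Btc (0.77 ± 0.15), the ligand betacellulin, and the feedback inhibitors Lrig1 and Errfi1 (0.61 ± 0.14) rose, whereas Egf itself was at 1.03, 1.502, 1.48 and 1.43 CPM in stem cells and 10.1, 9.81, 10.7 and 12.2 CPM in progenitors (log2 fold change -2.96 ± 0.41 SE, adjusted p = 1.68e-06). The receptor Egfr did not pass (0.26 ± 0.12), except without stem cell library a. Hedgehog and Hippo genes rose for 8 of 18 tested and fell for 1 (median 0.23). The gene that fell was Ihh, the Hedgehog ligand that the epithelium sends to the stroma, at 11.5, 11.8, 16.3 and 10.2 CPM against 40.02, 33.6, 48.2 and 34.3 CPM (log2 fold change -1.65 ± 0.18 SE, adjusted p = 1.87e-08), and its signal transducer Smo (0.99 ± 0.20) and the Hippo effector Wwtr1 (1.04 ± 0.18) rose.

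Division genes differed by little. Of 63 replication genes, 11 were higher and 4 lower in stem cells (median 0.20), and of 61 mitosis genes 17 were higher and 1 lower (median 0.31). The shares called in either direction, 23.8% and 29.5%, were below the 31.4% of all genes. The direction was mostly upward, and the counts of higher genes are to be read beside the 14.1% of all genes. The log2 fold change was above 0 for 53 replication and 59 mitosis genes, while the median of all genes was 0.02. The TPM values gave 43 and 50 higher, with medians 0.22 and 0.31 above that of all genes. Kif20a, a mitotic kinesin, stood at 139, 152, 139.9 and 192 CPM in stem cells and 104, 88.8, 94.8 and 121 CPM in progenitors, and Cenpf, of the kinetochore, at 41.97, 56.6, 48.8 and 48.5 CPM against 28.04, 28.2, 27.97 and 36.4 CPM (log2 fold change 0.70 ± 0.17 SE, adjusted p = 0.00189). Stem cell library d was the highest of its group for Kif20a, and the mitosis sum was 9278 CPM there against 7699 to 7790 CPM in the other stem cell libraries; without d 6 mitosis genes passed as higher, without progenitor b, 7, and without progenitor c, 10. Replication calls fell to 3 without progenitor c, 4 without stem cell library d and 7 without progenitor d, and rose to 17 without stem cell library a. Ccna2 (0.25 ± 0.15), a cyclin of S phase and mitosis, did not pass, and on TPM it passed as higher. E2f2, a factor that drives entry into S phase, was among the replication genes that fell, at 8.05, 5.34, 7.61 and 14.1 CPM in stem cells and 18.3, 14.8, 20.03 and 30.8 CPM in progenitors (log2 fold change -1.26 ± 0.26 SE, adjusted p = 0.00032).

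Members of the cell cycle inhibitor list went both ways, 6 of 25 tested up and 6 down, median -0.01, and 10 up and 4 down on TPM. Those that fell included the CDK inhibitors of differentiating cells. Cdkn1a, which encodes p21, was at 7.37, 5.67, 7.18 and 9.62 CPM in stem cells and 57.2, 38.2, 71.8 and 65.8 CPM in progenitors (log2 fold change -2.97 ± 0.29 SE, adjusted p = 7.26e-09). Cdkn2b, which encodes p15, stood at 0.685, 1.001, 0.211 and 0.818 CPM against 19.2, 12.1, 22.4 and 24.2 CPM (log2 fold change -4.76 ± 0.41 SE, adjusted p = 3.17e-10), and Cdkn1c, which encodes p57, at 0.514, 1.17, 0.845 and 1.02 CPM against 9.45, 8.09, 10.3 and 12.4 CPM (log2 fold change -3.47 ± 0.32 SE, adjusted p = 7.94e-10). The groups did not overlap for these 3 genes, and Cdkn2b and Cdkn1c had few reads in each stem cell library. Ccng2 (1.01 ± 0.27) and Cdk6 (0.99 ± 0.18) rose. Cdk6 is a cyclin-dependent kinase and not an inhibitor, and it is counted in this list and among the crypt base markers. Of the 27 p53 targets 3 rose and 5 fell (median -0.01), Cdkn1a among the latter. The share called, 29.6%, was near the 31.4% of all genes. On TPM 7 rose and 4 fell, and on counts the numbers were 5 and 3 without stem cell library a and 3 and 3 without progenitor c.

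The count of ribosome genes that passed varied between fits. Ribosome biogenesis genes were higher in 10 of 47 and lower in none (median 0.11), with 33 higher on TPM, 6 without progenitor c and 5 without stem cell library d or progenitor d. Histone and DNA modifiers were higher in 9 of 47 tested and lower in none (median 0.21), with 26 higher on TPM, 4 without progenitor c and 5 without progenitor d. Cytosolic ribosomal protein genes passed in 4 of 80 cases, 3 higher and 1 lower, with a median of 0.05. Stem cell library a was the highest for this list, at a sum of 19953 CPM against 11662 to 14837 CPM in the other stem cell libraries. Progenitors stood at 12419 to 15005 CPM. Without stem cell library a, the counts were 0 higher and 4 lower. On TPM they were 28 and 0, and with only the 8 libraries in the fit 0 and 0, with 7 of the 80 at an unadjusted p under 0.05 in the fit of 32. They were 1 and 1 without progenitor a, and 0 and 1 without progenitor d. One-carbon and nucleotide genes rose in 7 of 28 cases and fell in 2 (median 0.13; 15 and 1 on TPM), and 4 rose without progenitor c or progenitor d. Shmt1 (0.51 ± 0.09), the cytosolic serine enzyme, and Paics (0.59 ± 0.10), of purine synthesis, were among those that rose.

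Fatty acid oxidation genes differed little between stem cells and progenitors that both lacked Cpt1a. Of 29 mitochondrial oxidation genes tested of 31, 7 were lower and none higher in stem cells, with a median of -0.17. Without stem cell library b, stem cell library d or progenitor a, 4 were lower. On TPM 1 was lower and 5 higher, and the median was -0.15 relative to that of all genes. Cpt2, the inner-membrane partner of Cpt1a, was at 287, 266, 297 and 251 CPM in stem cells and 358, 353, 428 and 370.4 CPM in progenitors, without overlap (log2 fold change -0.46 ± 0.16 SE, adjusted p = 0.0246), and its adjusted p was 0.0587 without stem cell library b, 0.0701 without stem cell library d, 0.0871 without progenitor c and 0.378 on TPM. Slc25a20, the carrier that moves acylcarnitines between both enzymes, stood at 194, 154, 159 and 143 CPM against 252, 237, 240.4 and 225 CPM (log2 fold change -0.55 ± 0.15 SE, adjusted p = 0.00503), with an adjusted p of 0.0958 on TPM. Stem cell library a was the highest of its group for Slc25a20 and the lowest progenitor value was still above it. Acad11 (-0.95 ± 0.17), an acyl-CoA dehydrogenase, also fell, as did Pccb (-0.40 ± 0.10), a subunit of propionyl-CoA carboxylase, whose adjusted p was 0.433 on TPM. The most abundant enzymes of the spiral did not pass: Hadhb (-0.02 ± 0.11), Acaa2 (-0.19 ± 0.13) and Acadvl (-0.22 ± 0.12).

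Peroxisomal oxidation, which shortens very long chains without Cpt1a, fell in 10 of 24 tested members and rose in 1 (median -0.24; on TPM 7 fell and 3 rose, with a median of -0.22 relative to all genes). Ehhadh, the bifunctional enzyme, stood at 107, 99.9, 104 and 85.5 CPM against 168, 152, 139 and 144 CPM (log2 fold change -0.60 ± 0.11 SE, adjusted p = 8.39e-05), and Abcd3, a peroxisomal transporter, at 311, 292, 286 and 259 CPM against 490.2, 418, 431 and 461 CPM (log2 fold change -0.65 ± 0.11 SE, adjusted p = 3.05e-05). For both genes the highest stem cell library stayed below the lowest progenitor library. Cat, the catalase, was the member that rose (0.41 ± 0.12), and Hsd17b4 (-0.12 ± 0.09) and Ech1 (-0.19 ± 0.12) did not pass.

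PPAR targets fell in 10 of 33 tested cases and rose in 2 (median -0.20; on TPM 7 fell and 5 rose, with a median of -0.17 relative to all genes). Cyp4a10, a fatty acid omega-hydroxylase with near-identical copies beside it, was at 12.2, 9.84, 17.1 and 7.57 CPM in stem cells and 106, 66.98, 103 and 84.4 CPM in progenitors (log2 fold change -2.95 ± 0.41 SE, adjusted p = 2.67e-06). Me1, which makes NADPH from malate, stood at 26.7, 25.4, 30.2 and 19.03 CPM against 139, 107, 141 and 95.5 CPM (log2 fold change -2.25 ± 0.31 SE, adjusted p = 1.75e-06). Both were lower in each stem cell library than in each progenitor library. Txnip, an inhibitor of thioredoxin and of glucose uptake, rose, at 575, 551, 400.1 and 417 CPM against 215, 270.1, 157 and 223 CPM (log2 fold change 1.17 ± 0.22 SE, adjusted p = 0.000118).

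Ketone body genes were lower in 5 of 7 tested cases, with Oxct1 higher (median -0.31), and on TPM 1 was lower and 1 higher. Without stem cell library b or progenitor a, 3 were lower. The summed level of the 9 listed genes was instead higher in stem cells, at 5565 to 6957 CPM against 5128 to 5557 CPM. Bdh1, which makes beta-hydroxybutyrate, was at 134, 152, 147 and 142 CPM in stem cells and 197, 195, 172 and 199.6 CPM in progenitors (log2 fold change -0.41 ± 0.08 SE, adjusted p = 0.000143), and its adjusted p on TPM was 0.468. Oxct1, which starts ketone use, was at 88.4, 58.1, 61.3 and 67.3 CPM against 55.9, 53.5, 50.4 and 61.9 CPM (log2 fold change 0.31 ± 0.11 SE, adjusted p = 0.0303). Its groups overlapped, stem cell library a was the highest, and the adjusted p was 0.183 without that library and 0.0542, 0.0662 and 0.103 without progenitor a, b or c. Slc16a6 (-1.69 ± 0.25), a ketone exporter, fell, as did the monocarboxylate carrier Slc16a1 (-0.31 ± 0.08), with an adjusted p of 0.693 on TPM.

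**Figure D3:**
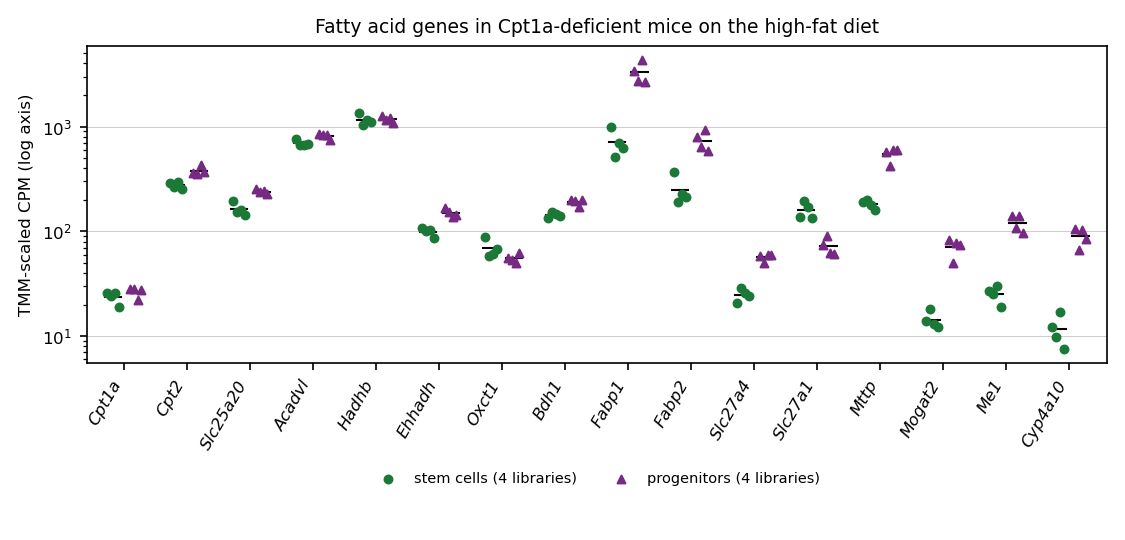
TMM-scaled CPM (log axis) of 16 genes of fatty acid and ketone metabolism in the 4 stem cell libraries (circles) and the 4 progenitor libraries (triangles) of Cpt1a-deficient mice on the high-fat diet, with black bars at group means. Cpt1a and Hadhb overlap between the groups, Fabp1, Mttp and Cyp4a10 are lower in every stem cell library than in every progenitor library, and Slc27a1 is higher.

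Genes that take up and bind fatty acids moved in both directions, 10 of 20 tested lower and 6 higher (median -0.42; 6 and 7 on TPM). Fabp1, the abundant binding protein of enterocytes, was at 993, 515, 699 and 623 CPM in stem cells and 3422, 2697, 4319.9 and 2682 CPM in progenitors (log2 fold change -2.21 ± 0.47 SE, adjusted p = 0.000727). Its relative Fabp2 stood at 368, 192, 226 and 211 CPM against 792, 636, 920.3 and 591 CPM (log2 fold change -1.56 ± 0.24 SE, adjusted p = 1.2e-05). Library a was the highest of the stem cell group for both. The transporter Slc27a4 of enterocytes was lower in stem cells, at 20.6, 28.9, 25.99 and 24.1 CPM against 57.8, 49.4, 59.7 and 58.9 CPM (log2 fold change -1.18 ± 0.14 SE, adjusted p = 6.77e-08), while its relative Slc27a1 was higher, at 137, 193, 169.6 and 135 CPM against 73.9, 89.7, 62.3 and 61.1 CPM (log2 fold change 1.14 ± 0.16 SE, adjusted p = 2.85e-06). Within this family the direction therefore differed by member. Acss2 (0.86 ± 0.12), which activates acetate, and Acsm3 (1.13 ± 0.18), a medium-chain ligase, rose, and Cd36 (-2.37 ± 0.58) and Acsl6 (-2.79 ± 0.55) fell from low levels.

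Chylomicron and lipid droplet genes were lower in 12 of 28 tested cases and higher in 1 (median -0.57). Mttp, which loads fat onto apolipoprotein B, was at 191, 199, 180.2 and 161 CPM in stem cells and 568, 416, 593 and 599 CPM in progenitors (log2 fold change -1.57 ± 0.21 SE, adjusted p = 1.3e-06). Mogat2, the monoacylglycerol acyltransferase of fat absorption, stood at 13.9, 18.4, 13.1 and 12.3 CPM against 82.1, 50.1, 77.7 and 74.5 CPM (log2 fold change -2.29 ± 0.28 SE, adjusted p = 3.23e-07). In both, progenitor b was the lowest of its group and still above each stem cell library. The gene that rose was Pnpla2, the triglyceride lipase of droplets, at 166, 141, 139.6 and 141 CPM against 98.9, 91.8, 90.4 and 104 CPM (log2 fold change 0.61 ± 0.09 SE, adjusted p = 7.92e-06). Plin2, which coats droplets, did not pass (0.16 ± 0.10).

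Fatty acid synthesis and desaturation genes split, 5 of 17 tested higher and 3 lower (median 0.03; 7 and 2 on TPM), with 3 higher without stem cell library b or progenitor c and 2 without progenitor d. The desaturases Fads1 (0.49 ± 0.10) and Fads2 (0.62 ± 0.10) of the polyunsaturated series rose, while the elongases Elovl6 (-1.48 ± 0.19) and Elovl7 (-0.78 ± 0.12) fell. Fads2 was at 362, 360.4, 305 and 346 CPM in stem cells and 225, 249, 191 and 229 CPM in progenitors, and Elovl6 at 27.4, 18.2, 22.4 and 35.2 CPM against 69.8, 51.5, 67.2 and 98.8 CPM, each without overlap. Acly (-0.21 ± 0.16) and Srebf1 (0.07 ± 0.10), the citrate lyase and its sterol-regulated factor, did not pass.

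Sterol genes were lower in 12 of 31 cases and higher in 2 (median -0.57, 4 lower on TPM). Npc1l1, the cholesterol importer of enterocytes, was at 14.6, 16.2, 14.8 and 15.6 CPM in stem cells and 53.7, 38.4, 51.96 and 63.8 CPM in progenitors (log2 fold change -1.76 ± 0.21 SE, adjusted p = 1.35e-07), and the synthesis enzymes Msmo1 (-1.17 ± 0.29) and Lss (-0.83 ± 0.22, with an adjusted p of 0.296 on TPM) fell. Stem cell library d was the highest of its group for both enzymes, and 19 members passed as lower without it, against 8 without stem cell library c or progenitor d. Soat1, the sterol acyltransferase, rose, at 477, 567, 597 and 461 CPM against 182, 255, 168 and 166 CPM (log2 fold change 1.45 ± 0.18 SE, adjusted p = 3.19e-07).

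Nuclear genes of the respiratory chain were lower in stem cells by small amounts, 16 of 36 complex I subunits and 19 of 39 subunits of complexes II to V, with none higher and medians of -0.32 and -0.38. On TPM, 3 and 4 were lower and 1 and 1 higher, and the medians were -0.34 and -0.37 relative to all genes. The counts moved with the library left out. The complex I sum was 8040 CPM in stem cell library a and 5310 to 7030 CPM in b to d, against 7697 to 8407 CPM in progenitors, and without library a 31 and 35 members passed as lower. Without stem cell library b, 5 and 8 did; without stem cell library c, 6 and 7; without progenitor a, 6 and 11; and without progenitor c, 7 and 10. Ndufs5, a complex I subunit, was at 79.99, 40.9, 50.1 and 62.4 CPM in stem cells and 93.1, 83.8, 104 and 94.9 CPM in progenitors (log2 fold change -0.68 ± 0.18 SE, adjusted p = 0.00365). Uqcrfs1, the Rieske protein of complex III, stood at 379.9, 278, 304 and 319.6 CPM against 536, 446, 484 and 480.5 CPM (log2 fold change -0.60 ± 0.12 SE, adjusted p = 0.000148). With edgeR, 0 of the 13 transcripts of the mitochondrial genome passed (median 0.08) and 0 had an unadjusted p under 0.05, DESeq2 called 0 and limma on TPM called 3, all higher.

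Enzymes of the tricarboxylic acid cycle fell in 14 of 32 cases and rose in 1 (median -0.24; 4 lower and 7 higher on TPM), and 8 fell without stem cell library b. Citrate synthase, Cs, was at 367, 337, 322 and 353 CPM in stem cells and 535, 471, 474 and 523 CPM in progenitors (log2 fold change -0.54 ± 0.10 SE, adjusted p = 0.000124), and Mdh2, the malate dehydrogenase, at 759, 608, 603 and 754 CPM against 1212, 1024, 1318 and 1290.2 CPM (log2 fold change -0.83 ± 0.14 SE, adjusted p = 2.71e-05). Glycolysis and sugar genes fell in 21 of 32 tested cases and rose in 3 (median -0.43; 11 lower on TPM). Pfkp, a phosphofructokinase, was at 28.1, 30.7, 36.5 and 55.5 CPM against 182, 121, 189 and 237 CPM (log2 fold change -2.28 ± 0.22 SE, adjusted p = 6.26e-09), and Pck1, of glucose synthesis, at 4.97, 3.50, 2.75 and 2.25 CPM against 16.2, 22.4, 23.2 and 19.9 CPM (log2 fold change -2.57 ± 0.32 SE, adjusted p = 3.74e-07). Of the antioxidant and glutathione genes 19 of 34 tested fell and 1, Cat, rose (median -0.36; 13 and 5 on TPM), with Nqo1 (-2.04 ± 0.29), a quinone reductase, and Mgst3 (-1.02 ± 0.16) among the lower.

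MHC class II genes were higher in stem cells in 3 of 8 tested cases of 11, with none lower and a median of 1.08. Cd74, the invariant chain, was at 743, 863, 526 and 883 CPM in stem cells and 332, 454, 223 and 377 CPM in progenitors (log2 fold change 1.12 ± 0.41 SE, adjusted p = 0.0373), and H2-Eb1, a beta chain, at 77.6, 71.4, 48.2 and 73.5 CPM against 25.4, 32.5, 17.3 and 27.2 CPM (log2 fold change 1.40 ± 0.47 SE, adjusted p = 0.0245). Ciita, the master activator of the class, rose by 1.11 (adjusted p = 0.0172). Library c was the lowest of both groups, and leaving out 1 library moved the count between 0 (without progenitor a, or progenitor c) and 4 (without progenitor b), and to 1 without stem cell library b; 8 members passed as higher on TPM. Cd74 had an adjusted p of 0.0628 to 0.119 without stem cell library b or d or progenitor a, c or d. H2-Aa and H2-Ab1, the chains of the I-A dimer, had similar fold changes (1.39 ± 0.64 and 1.05 ± 0.47) that did not pass. MHC class I and interferon genes fell in 8 of 22 tested cases and rose in 1 (median -0.29), against 2 and 2 on TPM. Without stem cell library c 4 of them fell, and 5 without stem cell library b or d or progenitor a, c or d. Of 22 epithelial defence genes tested 8 fell and 2 rose (median -0.74), the bacterial sensor Tlr2 among the latter (1.12 ± 0.27). Of 23 immediate early and heat shock genes tested, 3 passed, all higher: Jun, at 210.3, 307, 222 and 228 CPM against 58.5, 83.8, 49.98 and 50.3 CPM (log2 fold change 1.99 ± 0.29 SE, adjusted p = 5.87e-06), Ier2 and Myc. Junction and matrix receptor genes passed as higher in 6 and as lower in 7 of 33 tested cases (median -0.05), and in 11 and 2 on TPM, Cldn2 (0.38 ± 0.09), a pore-forming claudin of crypts, and Lamb3 (0.88 ± 0.20), a laminin chain, rising and Cdh17 (-0.50 ± 0.08) falling.

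Whether the stem cell against progenitor difference itself depended on Cpt1a was tested against wild-type mice on the same high-fat diet, and whether it depended on diet against Cpt1a-deficient mice on the control diet. The 2 comparisons set against it use none of the 8 libraries described so far. With edgeR and no replicate block, 0 of 13088 genes (0%) passed for genotype and 0 (0%) for diet, with 331 and 387 genes at an unadjusted p under 0.05. DESeq2 and limma on TPM also gave 0 for both, with 314 and 370 genes at an unadjusted p under 0.05 by DESeq2 and 396 and 447 by limma. All these counts, from fits without the block, are below the share of 0.05 that would be met without any difference. Such low counts varied with the fit and do not show that differences were absent. A replicate block, whose pairing the labels do not state, gave 2 genes for genotype and 1 for diet with edgeR. It had 600 and 810 genes at an unadjusted p under 0.05, and the count for diet was above that share. A count of 0 does not show that the contrasts were equal.

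**Figure D4:**
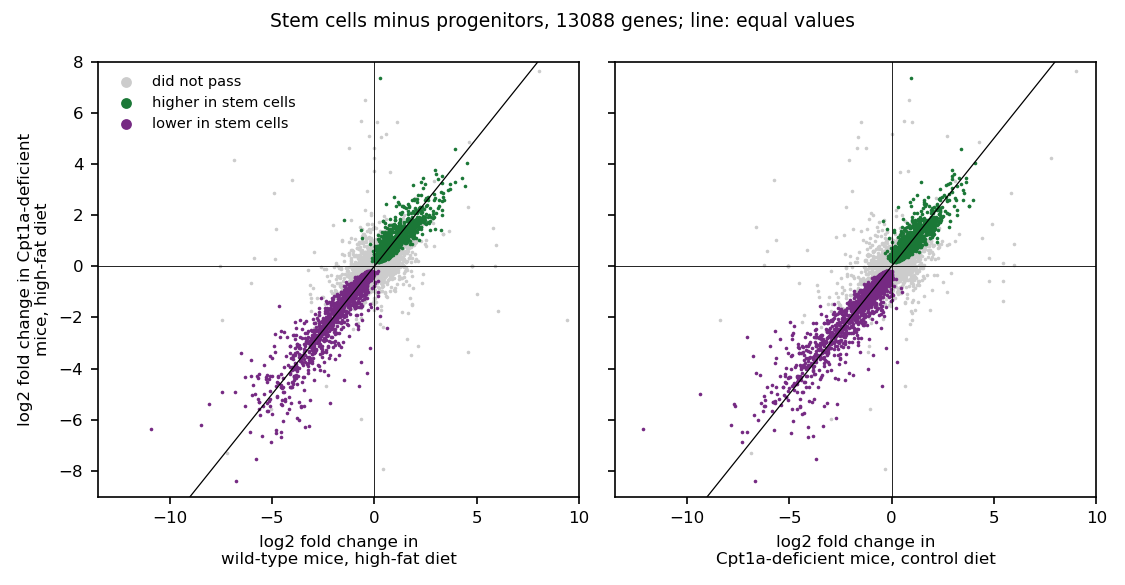
Log2 fold changes (stem cells minus progenitors) of 13088 genes in Cpt1a-deficient mice on the high-fat diet (vertical axis) against wild-type mice on the high-fat diet (left) and Cpt1a-deficient mice on the control diet (right), each dot 1 gene, coloured where the gene passed in the vertical comparison, with a line of equal values. Of the 4107 coloured genes, 4082 have the same sign at the left and 4069 at the right.

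Of the 4107 genes that passed here, 4082 (99.4%) had the same sign in wild-type mice on the high-fat diet, where 3470 also passed with that sign and 1 with the opposite sign. In Cpt1a-deficient mice on the control diet 4069 (99.1%) had the same sign, 3330 passed with it and 0 passed against it. Among genes that did not pass here, 76.7% and 74.8% had the same sign. The fold change of Olfm4 was 1.91 here, 2.20 in wild-type mice on the high-fat diet and 2.03 in deficient mice on the control diet. For Zg16 the 3 values were -6.47, -6.06 and -7.08, for Alpi -3.98, -3.70 and -5.13, for Ehhadh -0.60, -0.61 and -0.52, and for Fabp1 -2.21, -2.19 and -3.31.

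Among the lists, mitosis genes had the most members with an unadjusted p under 0.05 for the diet difference, 13 of 61 against 387 of all 13088 genes. The list was picked for that count, and its median was 0.31 here and -0.04 on the control diet. None of its members passed after adjustment, and without stem cell library d, whose mitosis sum stood apart, the median here was 0.23. Of the listed genes with a small unadjusted p for a difference, 4 are given as examples, each with an adjusted p of 1. Ihh, the Hedgehog ligand, fell by 1.65 here and had a fold change of -0.69 on the control diet, a difference of -0.96 (unadjusted p = 0.000404). Cdkn1c had -3.47 here and -2.15 in wild-type mice (difference -1.32, unadjusted p = 0.00528). Lamb3 rose by 0.88 here and had 1.86 in wild-type mice (difference -0.99, unadjusted p = 0.00202) and 1.66 on the control diet. Oxct1, of ketone use, had 0.31 here, -0.08 in wild-type mice and -0.13 on the control diet (unadjusted p = 0.0158 and 0.00725 for the 2 differences). They were named after their values were seen, and none of these differences passed.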

How the data were processed

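Bulk RNA of sorted cells was measured in 32 libraries of 8 groups of 4, by cell type, genotype and diet, and the 8 Cpt1a-deficient libraries of the high-fat diet are described here. The authors deposited expected counts per gene and log2 values of TPM plus 1. STAR 2.5.3a, RSEM 1.3.0, SAMtools 1.3 and the build mm10 are named without a role or order, per the submitters' processing notes. Whether counting used the strand was not given in the sources used here, so reads of antisense partners cannot be told apart. The share of each near-identical copy is uncertain whether or not the strand was used. Columns were matched to groups by name, 0 columns belonged to other samples, and, since columns carry no replicate number, column order was not used to pair libraries outside the replicate block.

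Expected counts were rounded to whole numbers and fitted with edgeR 4.0.16 in R 4.3.3. The fit used TMM scaling, filterByExpr with a minimum count of 10, and the robust quasi-likelihood test over 8 groups and 32 libraries (24 residual degrees of freedom), with Benjamini-Hochberg adjusted p under 0.05 over 13088 genes. CPM are TMM-scaled. Standard errors were derived from each log2 fold change and its F statistic, as the first divided by the root of the second. Genes passed or did not pass by this test, and every adjusted p is from it unless another fit is named. Differences of differences used the same fit. The scripts were checked on simulated data. Symbols came from a table of identifiers, and 310 of 50686 identifiers, with at most 0.0815% of a library's counts, had none. Positions are from GENCODE annotation of GRCm38, and promoters are RefSeq's.

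The gene lists and the comparison were chosen with earlier results of these data known. Named genes were up to 6 passing members of a list with the largest absolute change, up to 3 that moved against the majority, up to 3 abundant members that did not pass, and 12 leading genes each way with a mean log2 CPM of at least 3 and no overlap. Exceptions are stated. Other fits were DESeq2 1.42.0, limma 3.58.1 on the deposited log2 TPM values, other scalings and filters, glmTreat at 1.5-fold, fewer libraries, a replicate block and leaving out each library. The total counts of 4449244 to 6694581 limit the precision of genes under a few CPM.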

Additional observations from a re-analysis of the deposited data

Results flagged for a closer look

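In 36 of 545 groups of 4 libraries (6.61%), 1 library lay apart from the other 3 by a gap, relative to the group's range, beyond Dixon's 95% critical value. Chance gives about 1 in 20. Values are CPM, and none of the causes was tested.

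Among progenitors, library b lay apart most often. It was the highest for Olfm4 (3543), for the summed crypt base markers (9423), for Gm830 (39.9), Pik3ap1 (7.58) and Prox1 (6.37), and the lowest for the enterocyte lipid gene Mttp (416), the adhesion gene Cdh17 (1360.3) and the summed class I and interferon genes (3346). Progenitor c was the lowest for Cpt1a (22.2) and Bdh1 (172) and the highest for Foxa3 (141) and Zfp467 (8.33). Gm10222, named for a difference by genotype with the replicate block, was highest in library c of both groups, at 2.96 in stem cells and 12.3 in progenitors. Progenitor d was the lowest for Acadvl (742) and the highest for Cenpf (36.4), and progenitor a was the highest for Klf5 (651).

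Among stem cells, library a was the highest for the quinone reductase Nqo1 (19.5), Krt19 (1306), Ech1 (767), Ezr (236), Pnpla2 (166) and Sct (3.94), and the lowest for Egf (1.03). Library b was the highest for Gip (4.50), Marcksl1 (55.1) and Apcdd1 (7.17). Library c was the highest for Btc (25.4) and Mylk (14.2) and the lowest for Klf5 (498) and the summed class II genes (879). Library d was the highest for the summed mitosis genes (9278), the summed sterol genes (2476), the summed red blood cell markers (7.57) and Mptx1 (2.66), and the lowest for Pdgfa (62.6).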

How the results depend on the processing

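The 4107 genes called became 4934 with a replicate block, 4100 with relative log expression scaling, 4307 with upper quartile scaling, 3414 with no filter, 4127 with a stricter filter, 4185 with DESeq2 and 3211 with only the 8 libraries. A test against a 1.5-fold change gave 1072, 301 higher and 771 lower, since it asks for a larger difference. On TPM 4273 were higher and 1212 lower, and the cause was not tested. Leaving out 1 library gave 3379 to 4457 calls, 1414 to 2055 higher and 1965 to 2402 lower. Between 72.5% and 99.5% of the calls were kept with their direction, and 26.1% in the test against 1.5-fold. Of 174 named genes called, 128 kept call and direction in every fit run and 0 reversed, and 24 of 46 not called were called in some fit. No count of the differences by genotype or diet rose above 0, leave-one-out fits included (0 to 0), except with the block. The block paired each stem cell column with the progenitor column after it and gave 2 genes for genotype, Acot1 and Gm10222, and 1 for diet, Trp53inp1, with 600 and 810 genes at an unadjusted p under 0.05. Columns carry no replicate number. Deviations of the 4 pairs from their group means correlated at 0.225, 0.154, 0.098 and 0.212 across genes, and library c correlated slightly better with another letter (0.104). Over the 8 groups, the correlation was best with the same letter in 15 of 16 pairs. The pairing is a hint from the data and not from the design. With the block complex I went from 16 to 28 lower members, complexes II to V from 19 to 34, mitochondrial oxidation from 7 to 13, sterol genes from 12 to 22, and mitosis genes from 17 to 29 higher, replication from 11 to 17 and class II from 3 to 7. Depth limits genes below about 1 CPM, such as Lef1 in progenitors or Lmx1a in stem cells.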
